A study of Homo sapiens with 9 samples.

Results

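Tandem poly(A) sites are cleavage and polyadenylation sites that lie one after another in the last exon of a gene, so that the same coding sequence can end in a shorter or a longer 3′ untranslated region. They were taken here from TIF-Seq2, which sequences the 5′ and the 3′ end of the same capped and polyadenylated RNA molecule as a read pair. A gene entered when it was protein-coding in Gencode v44 and its last exon, in 1 transcript, held at least 2 sites of at least 20 read pairs each over the 4 libraries, at least 200 bp apart. 3′ end positions within 10 bp were merged, positions with 7 or more A in the next 10 nt of the genome were left out, and only pairs whose 5′ end lay in the gene on its strand were counted. The genes were thus chosen by their read pair counts at 3′ ends, pooled over the libraries. Of 20046 protein-coding genes, 9151 had at least 1 such site and 2784 (30.4% of the 9151) had tandem sites. For 18 of these, both sites were also those of another gene, and 2766 genes with their own pair of sites were described.

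All 4 libraries came from K562, an established line of chronic myeloid leukaemia cells that carries the BCR-ABL fusion kinase. Replicates 1 and 2 of the treated group were exposed to imatinib, an inhibitor of that kinase, at 1 μM for 24 h, and replicates 1 and 2 of the control group to DMSO, its solvent. The tables held 3695520 and 5135829 read pairs in the DMSO libraries and 4263670 and 2263121 in the imatinib libraries. K562 is a single line in culture, and in bulk RNA a change in the make-up of the cells and a change of RNA per cell cannot be told apart. Read pairs of 9 K562 marker genes, summed, came to 4276 to 4829 CPM (read pairs scaled to a library of 1e6) with DMSO and 13769 to 14062 CPM with imatinib, mainly through the globin genes HBG2 (2967 to 3420 against 8153 to 8734 CPM) and HBZ (654 to 782 against 3220 to 3909 CPM), while GATA1 overlapped between the groups and BCR was lower in both imatinib libraries. Those of 6 genes of other blood cells came to 87.4 and 126 CPM with DMSO and 40.8 and 75.6 CPM with imatinib, with CD3E and CD14 at 0 and MPO at 1 pair in all. The part of these differences in the results below was not tested.

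Cleavage of a pre-mRNA is directed by a hexamer, most often AAUAAA or its variant AUUAAA, which the CPSF complex reads a short way upstream of the cut, together with elements downstream that CSTF binds and with UGUA motifs bound by the CFIm complex, whose small subunit is NUDT21. Where an exon holds several sites, use of an upstream site removes the region between the sites from the mRNA, along with any element in it that affects stability, translation or localization. Cells that divide fast are known for shorter 3′ untranslated regions than resting or differentiating cells.

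The 30 bases that end at the cleavage position are shown for genes to which the results return, with AATAAA or ATTAAA in capitals where the 30 bases hold either, all from hg38 and read on the strand of the transcript. FUBP1, which encodes a single-strand DNA-binding regulator of MYC, ended at chr1:77948404-77948433 or at chr1:77944056-77944085 on the minus strand, both in exon 20. GRAP2, an adaptor of blood cell signalling, ended in exon 8 at chr22:39971351-39971380 or chr22:39973313-39973342 on the plus strand. The 30 bases held AATAAA at the distal site of both genes and, of the proximal sites, at that of FUBP1.
FUBP1 proximal: gtgctttacAATAAAtgatatgaaacctcc
FUBP1 distal: ttcctcAATAAAtgtacattgatgactatt
GRAP2 proximal: cagggaaatgaaatggagttttgtcctggc
GRAP2 distal: agtAATAAAacaaagtgtccttgtttggcc

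A second set belongs to genes described for their starts or their function. MCFD2, a cargo receptor for coagulation factors, ended in exon 4 at chr2:46905237-46905266 or chr2:46901878-46901907, and RPL22, a protein of the large ribosomal subunit, in exon 4 at chr1:6186619-6186648 or chr1:6186219-6186248. TFRC, the transferrin receptor that takes up iron, ended in exon 19 at chr3:196051637-196051666 or chr3:196049285-196049314, and GRB2, the adaptor that links BCR-ABL to RAS, in exon 6 at chr17:75320013-75320042 or chr17:75318077-75318106. All 4 genes lie on the minus strand.
MCFD2 proximal: aagtgctATTAAAtaccttattggacaagg
MCFD2 distal: tggatatatgaccAATAAAactgatgaagc
RPL22 proximal: gtatgagttcttgAATAAAacttgggaacc
RPL22 distal: gactgtcAATAAAatgcgggtttctgggcc
TFRC proximal: ctgttgttgttaatgaaaatgtcagaaacc
TFRC distal: tgtctgatttAATAAAatacttaaacactg
GRB2 proximal: gctgacgccaatAATAAAaaacaagaaacc
GRB2 distal: tgtgaatAATAAAtacacaatgaattcttc

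Of each gene, the pair of sites with the most read pairs was compared, and the upstream site was called proximal. The sites lay a median of 762 bp apart, with the middle 50% of genes between 394 and 1507 bp and the farthest at 10680 bp. The last exon held 2 sites in 1294 genes, 3 in 708, 4 in 396 and 5 or more in 368. Both sites mostly lay past the stop codon: of 2723 genes with a stop codon in the transcript used, the proximal site was downstream of it in 2649 and upstream of it in 74, with median distances of 320 nt for the proximal and 1325 nt for the distal site. The transcript used was protein-coding in 2713 genes and of another type in 53, whose sites need not follow the same coding sequence. The distal site matched an annotated transcript end, within 24 bp, in 2006 genes (72.5%) and the proximal site in 1058 (38.3%). The rule keeps sites inside an annotated last exon, whose own end only the distal site can match. The proximal site can match only the end of another transcript, so these counts differ in part by construction. In 1206 genes only the distal site was annotated, in 258 only the proximal, in 800 both and in 502 neither.

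SERBP1, which encodes an mRNA-binding protein and was picked after its values were seen, had the most sites in 1 exon, 17. Its pairs were concentrated at the second site (5161 pairs, 34.4%) and the fourteenth (4509 pairs, 30.1%), which lay 220 and 2070 bp after the first, whereas the first site held 1471 pairs (9.82%) and the last 68. Among the 1472 genes with 3 or more sites, the most used site was the first in 396, the last in 422 and one in between in 654. The hexamer class also differed along the exon of SERBP1: AATAAA was found only at the sixteenth site, which held 153 pairs.

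The proximal share, defined as the read pairs at the proximal site in percent of those at both sites, was computed from the pairs that start upstream of the proximal site, which can end at either site. These came to 4528633 pairs, with a median of 453 per gene. Pooled over the libraries, the share was above 50% in 1535 genes (55.5%), with a median of 57.5%. It lay under 10% in 304 genes, over 90% in 523 and between in 1939, so that most genes used both sites in these cells. The limit of 20 pairs per site keeps out genes whose second site is rarer, and these counts describe the genes that the rule chose. Just inside that limit, AP2A2 had 321 and 20 pairs at its sites and AP5B1 20 and 23, and just outside, ABHD18 had 19 and 21 and AIDA 19 and 520. Sites of BCAS2 and GALK2 lay 200 bp apart and those of EXOSC9 and MANF 199 bp.

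The 6 genes with the most read pairs were LSM3, a subunit of the ring that binds U6 snRNA, and the ribosomal protein genes RPL22, RPL31, RPL32, RPL38 and RPS23. In LSM3 the proximal site held 9141 and 11829 pairs with DMSO and 9790 and 4711 with imatinib, and the distal site 1 and 7 against 7 and 1. RPL31, RPL32, RPL38 and RPS23 ended at the proximal site in 98.5% to 99.9% of pairs in every library. RPL22 stood apart from them, with shares of 67.7% and 70.3% with DMSO and 69.0% and 68.2% with imatinib, and the groups overlapped. Among the 36 ribosomal protein genes with tandem sites, a group chosen after their values were seen, the median pooled share was 97.9%, with 22 genes over 90% and 6 under 50%. Cytosolic ribosomal protein mRNAs are known for very short untranslated regions.

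The 2441 genes with at least 10 pairs in each library were used to compare libraries, and 325 were not. Their median proximal share was 58.1% and 56.1% in the DMSO libraries and 53.8% and 52.1% in the imatinib libraries, that is 57.1% ± 1.44 (SD, n = 2) and 53.0% ± 1.25 (SD, n = 2). The imatinib libraries were both lower than the DMSO libraries, with an imatinib minus DMSO difference of -4.15 points between the means, and with 2 libraries against 2 an exact two-sided permutation test cannot go below p = 0.333. The shares of all pairs summed over genes were closer together, at 61.4% and 60.6% with DMSO and 60.1% and 59.8% with imatinib. In the 1210 other genes of any type with 2 qualifying sites, the pair was sought over the whole gene. These genes were not protein-coding, or no last exon held both sites, so that a site could also lie upstream of the last exons. Their medians were 41.0% and 40.7% with DMSO against 34.5% and 31.9% with imatinib, a difference of -7.68 points. Whether the 2 sets of genes differ in their change was not tested.

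**Figure D1:**
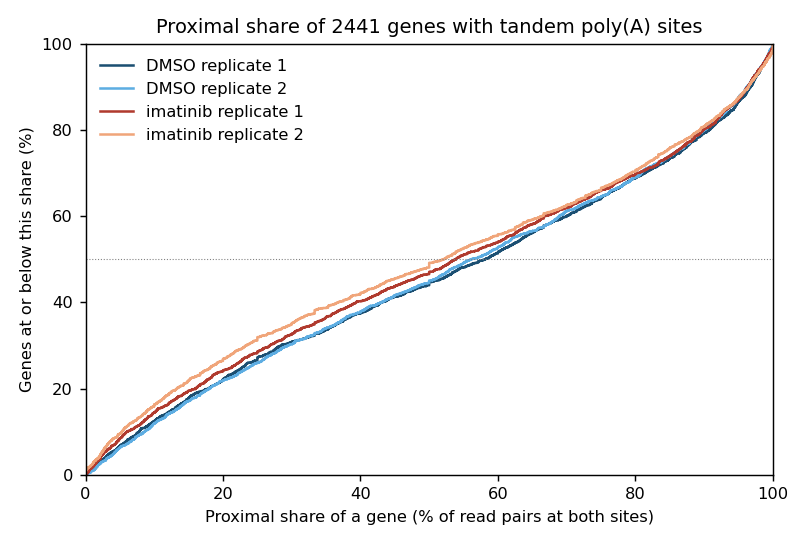
Cumulative distribution of the proximal share in each library over the 2441 genes with at least 10 pairs per library; the x axis is the proximal share of a gene in percent and the y axis the percent of genes at or below it. The imatinib curves lie slightly left of the DMSO curves in the middle of the range, with medians of 53.8% and 52.1% against 58.1% and 56.1%.

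Hexamers were searched in the 40 nt before each site, on the strand of the transcript. AATAAA stood before 1862 distal sites (67.3%) and 1256 proximal sites (45.4%), against 70.2% of the 4762 sites that were the only site of a protein-coding gene and 56.0% of all 20312 qualifying sites. ATTAAA, without AATAAA, stood before 16.4% of distal and 20.0% of proximal sites. None of these and none of 10 single-base relatives (AGTAAA or TATAAA or CATAAA or GATAAA or ACTAAA or AAGAAA or AATGAA or AATATA or AATACA or AATAGA) was found before 104 distal sites (3.76%) and 357 proximal sites (12.9%). At least 2 copies of TGTA lay in the 100 nt before 24.7% of distal sites, 17.8% of proximal sites and 19.4% of all sites. In AATAAA the distal sites thus lay nearer to the single-site genes than the proximal sites did, a difference that was not tested.

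The proximal share differed with the pair of hexamers. Where the proximal site had AATAAA and the distal site had neither AATAAA nor ATTAAA, the median share was 82.6% ± 1.05 (SD over the 4 libraries, 143 genes). With AATAAA at both sites it was 62.4% ± 2.11 (782 genes), and with neither hexamer at the proximal and AATAAA at the distal site 33.8% ± 4.01 (510 genes). The medians of these 3 classes did not overlap in any library, as the plot of shares by hexamer shows. That plot does not show the spread of genes within a class. Medians of classes next to each other in the order can overlap: neither hexamer at both sites gave 54.4% ± 1.99 (182 genes) and ATTAAA followed by AATAAA 53.9% ± 3.28 (350 genes). The libraries hold the same genes, so that these SDs cover the libraries and not the choice of genes. A hexamer match describes the letters before a site and no more.

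**Figure D2:**
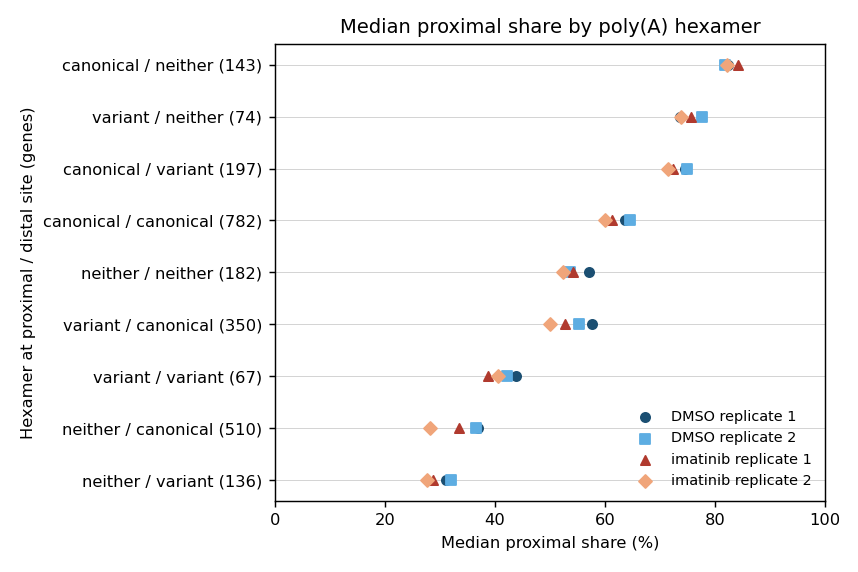
Median proximal share (x axis, percent) in each of the 4 libraries for 9 classes of genes by the hexamer at the proximal and the distal site (y axis; canonical is AATAAA, variant is ATTAAA; genes per class in brackets). The share runs from a mean of 29.9% where the proximal site has neither hexamer and the distal site the variant to 82.6% where the proximal site has the canonical hexamer and the distal site neither.

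The share also rose with the distance between the sites. In DMSO replicate 1 the median was 42.1% for sites 200 to 399 bp apart, 50.3% for 400 to 799 bp, 59.5% for 800 to 1599 bp and 78.6% for 1600 bp or more, and the other 3 libraries kept this order. By annotation, it was 41.7% and 40.9% in the DMSO libraries where only the distal site was an annotated end, and 79.9% and 81.4% where only the proximal site was. Genes with both ends annotated lay at 71.4% and 71.0%.

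**Figure D3:**
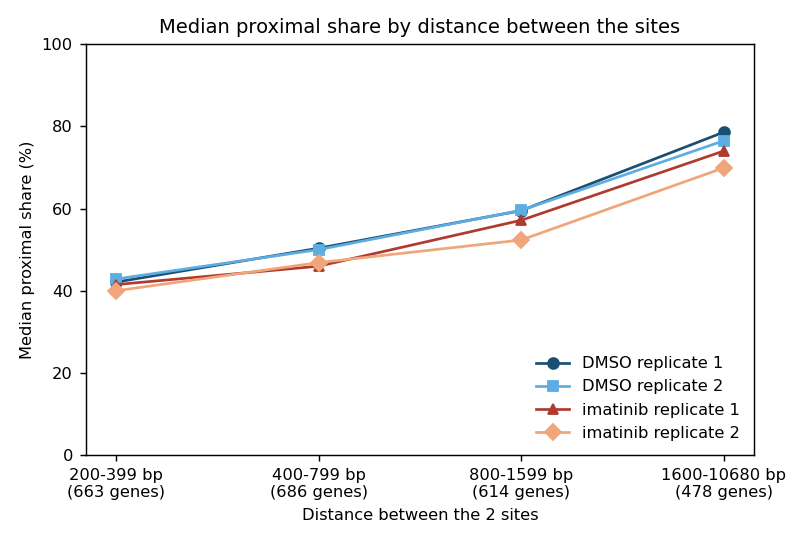
Median proximal share (y axis, percent) by distance between the sites (x axis, 4 bins, genes per bin in brackets) in each library. The share rises from 42.1% to 78.6% in DMSO replicate 1 over the bins, and in the longest bin the imatinib libraries, at 74.0% and 69.9%, lie below the DMSO libraries, at 78.6% and 76.5%.

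The comparison of imatinib with DMSO asked whether inhibition of the kinase came with a change of site choice; the rule pooled the libraries and did not use this contrast. The odds of the proximal site were tested with edgeR's quasi-likelihood test on the counts of both sites, on all 3651 genes with 2 qualifying sites and enough pairs. No gene passed at an adjusted p under 0.05: 0 of the 2441 genes with tandem sites and 0 of the 3651 (0%), with a smallest adjusted p of 0.248 in edgeR. In simulated counts, this test recovered 2% of genes with a 4-fold and 53% of those with a 16-fold change in the odds. The 0 calls thus cannot show that site choice stayed the same. At an unadjusted p under 0.05 there were 125 genes with tandem sites, 98 lower and 27 higher with imatinib, or 5.12%, against 8.46% of all 3651. The count of 125 changed with the library left out, to 36 without DMSO replicate 1, 37 without DMSO replicate 2, 334 without imatinib replicate 1 and 193 without imatinib replicate 2, with 0 genes called in each. DESeq2 called 1 gene, FUBP1.

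The direction was unequal. The log2 odds ratio was below 0 in 1556 of the 2441 genes (63.7%), against 64.5% of all genes tested, with a median of -0.22 against -0.25 over all. Both imatinib libraries were below both DMSO libraries in 653 genes (26.8%; 28.5% of all tested) and above both in 263 (10.8%; 11.2% of all tested), and in the other 1525 the groups overlapped. All genes tested, 3651, include these 2441, so that the shares are close in part by construction. Of the 1210 other genes alone, 389 were lower and 146 higher without overlap, with a median log2 odds ratio of -0.38. A lower share with imatinib was thus not particular to tandem sites, and the difference between the 2 sets was not tested. The median change of a gene was -1.23 points. A separation of at least 10 points between the group means together with no overlap was seen in 246 genes downward (10.1%; 12.2% of all tested) and 73 upward (2.99%; 3.62% of all tested). By distance, the median log2 odds ratio went from -0.14 for sites 200 to 399 bp apart over -0.17 and -0.25 to -0.40 for 1600 bp or more.

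Of the genes with the smallest p in each direction, 4 with a lower and 5 with a higher share are given as values, since edgeR called none. FUBP1 ended at its distal site, 4348 bp on, in 9 of 1736 and 6 of 2502 pairs with DMSO and in 30 of 1001 and 22 of 740 with imatinib. Its proximal share was thus 99.5% (95% Wilson interval 99.0% to 99.7%) and 99.8% (99.5% to 99.9%) against 97.0% (95.8% to 97.9%) and 97.0% (95.5% to 98.0%), and the groups did not overlap. The log2 odds ratio was -3.07 ± 0.53 (SE; adjusted p = 0.248 in edgeR), which with the replicate number as a block gave an adjusted p of 0.0283. Such intervals cover counting error only.

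GRAP2 had the larger shift in points. Its proximal share was 53.9% and 52.8% with DMSO and 24.2% and 20.6% with imatinib, a log2 odds ratio of -1.96 ± 0.49 (SE; adjusted p = 0.360 in edgeR), with no overlap. MPI, the mannose phosphate isomerase, went from 6.80% and 8.64% to 0.483% and 1.10%, on 1 proximal pair in each imatinib library. Its sites were matched to exon 1 of a transcript without a stop codon, so they need not be ends of the coding mRNA. MACIR, named for its part in macrophage metabolism, stood at 65.2% and 78.1% against 29.6% and 28.6%, on 23 to 32 pairs per library. In none of these 4 genes did the groups overlap, and the adjusted p was 0.360 in edgeR for MPI and for MACIR.

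Of the genes with a higher share, COX19, an assembly factor of cytochrome c oxidase, had 65.6% and 68.6% with DMSO and 88.6% and 84.7% with imatinib (adjusted p = 0.385 in edgeR), with no overlap. This direction rests on the choice of sites, as the most upstream and the most downstream of its 5 sites gave a log2 odds ratio of -1.79. SARS1, the seryl-tRNA synthetase, had 10 and 20 distal pairs with DMSO and 0 of 15 and 0 of 11 with imatinib, counts of 0 that still allow distal shares of up to 20% and 27.3%. The sites of SARS1 were matched to exon 2 of a transcript without a stop codon, so they need not be ends of the coding mRNA. ATP5F1E, a subunit of ATP synthase, AKR1C1, an aldo-keto reductase, and TXNL4A, a spliceosome protein, were at 98.5% or more in every library. Their distal sites held 1 to 27 pairs where any were seen, and TXNL4A had 0 of 126 in imatinib replicate 2, which allows up to 2.38%.

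**Figure D4:**
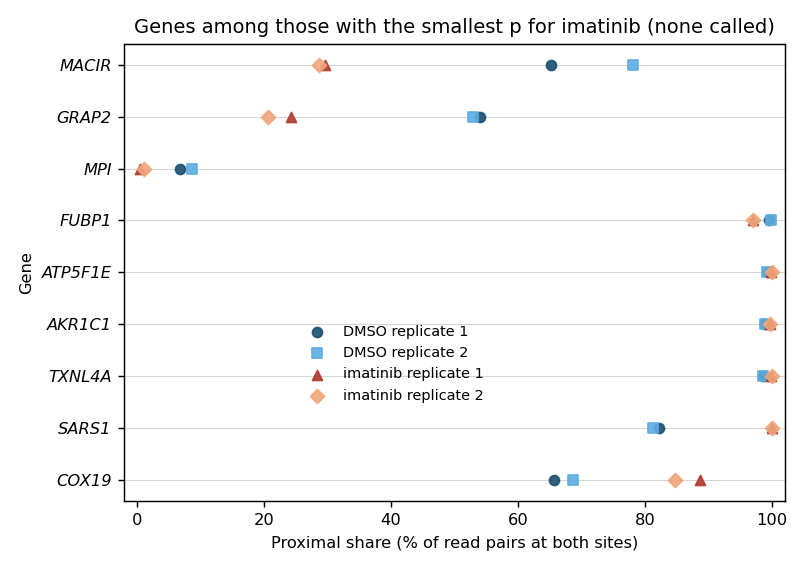
Proximal share (x axis, percent) in each of the 4 libraries for 9 genes among those with the smallest p, 4 with a lower and 5 with a higher share (y axis), ordered by the difference between group means. In every gene shown the imatinib points lie on one side of the DMSO points, as for GRAP2 at 24.2% and 20.6% against 53.9% and 52.8%, and none passed the adjusted test in edgeR, whereas FUBP1 passed in DESeq2 (adjusted p = 0.0101).

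Genes long known for tandem sites made up a list of 20, of which 13 had tandem sites here and 11 enough pairs. In 4 of the 11 the imatinib libraries were both lower (28.5% of all genes tested), in 1 both higher (11.2%), 1 had an unadjusted p under 0.05 (8.46%) and 0 were called, with a median log2 odds ratio of -0.44 (-0.25 over all genes). CDC42, a small GTPase of the cytoskeleton, went from 72.8% and 63.3% to 57.1% and 42.2% (log2 odds ratio -1.12 ± 0.47, SE; adjusted p = 0.570 in edgeR). Its groups did not overlap. NUDT21, the CFIm subunit, had 78.8% and 69.5% against 61.3% and 63.4%, and RAC1, a GTPase related to CDC42, 80.6% and 80.1% against 78.0% and 69.4%. ELAVL1, an AU-rich element binding protein, ended almost always at its distal site, with proximal shares from 2.45% to 6.02%, and VEGFA, the endothelial growth factor, overlapped between the groups at 27.7% and 19.5% against 18.4% and 28.7%. For CCND2 and VMA21 the pairs were too few.

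Of 25 erythroid and iron genes, 6 had tandem sites and 4 enough pairs. TFRC, whose 3′ untranslated region is known for iron-responsive elements, had a proximal share of 36.3% and 27.0% with DMSO and 16.3% and 20.7% with imatinib (log2 odds ratio -1.03 ± 0.46, SE; adjusted p = 0.587 in edgeR), without overlap. Its distal site, 2352 bp on, held 149 and 254 of these pairs against 482 and 192. Its level, tested on all pairs that end there whatever their start (263 and 409 against 874 and 294), rose by 1.21 on the log2 scale (adjusted p = 0.0468 in edgeR), whereas the proximal site, at 85 and 94 against 94 and 50 pairs, was not called (0.15, adjusted p = 0.843). EPOR, the erythropoietin receptor, had both sites higher with imatinib, by 2.01 and 2.56 on the log2 scale (adjusted p = 0.0338 and 0.00862 in edgeR), with overlapping shares. FTH1, the ferritin heavy chain, stayed at 99.3% to 99.5%.

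Of 22 genes of BCR-ABL signalling, 9 had tandem sites and 5 enough pairs. GRB2 had a proximal share of 84.2% and 85.9% with DMSO and 79.1% and 63.1% with imatinib (log2 odds ratio -1.16 ± 0.48, SE; adjusted p = 0.570 in edgeR), with no overlap. The proximal site of GRB2 fell by 1.19 on the log2 scale (adjusted p = 0.0298 in edgeR) and its distal site was not called (0.07, adjusted p = 0.936). SOCS2, a STAT5-induced inhibitor of cytokine signalling, had 34 and 52 proximal and 260 and 388 distal pairs with DMSO, and 5 and 1 proximal and 47 and 39 distal pairs with imatinib, whatever their start. Both sites of SOCS2 were lower, with log2 changes of -3.33 and -2.34 (adjusted p = 0.0117 and 0.00831 in edgeR).

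Levels of single sites, in read pairs per site, were then tested across all qualifying sites with edgeR. Of all 15478 sites tested, 1464 (9.46%) changed, 5.74% higher and 3.72% lower with imatinib. Proximal sites of the genes with tandem sites were called in 173 of 2338 (7.40%), 68 higher and 105 lower, with a median log2 change of -0.13, and distal sites in 174 of 2404 (7.24%), 97 higher and 77 lower, with a median of 0.08. The proximal site was called lower with the distal site not called in 61 genes, as in GRB2, and the distal site higher with the proximal not called in 40, as in TFRC. Both sites were higher in 47 genes and both lower in 38, and the proximal was higher alone in 16 and the distal lower alone in 28. In 1820 genes both sites were tested and neither was called. Such pairs were not counted in genes without tandem sites, so these counts have no background. A site called beside one that was not called does not show that they differ. One site was proximal in 1 gene and distal in another, and the total of 346 distinct called sites changed with the library left out, from 98 without DMSO replicate 2 and 146 without DMSO replicate 1 to 646 without imatinib replicate 1 and 897 without imatinib replicate 2.

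Genes of the cleavage and polyadenylation machinery were looked at as a list of 24, of which 23 could be tested for the level of the whole gene with edgeR. None was called (0 of 23, 1 with an unadjusted p under 0.05), and this count changed with the library left out. Of all 11144 genes, 14.1% were called with the 4 libraries, 8.38% higher and 5.7% lower. ELAVL1 had the smallest p, with 89.6 and 106 CPM against 48.8 and 57.7 (log2 change -0.88 ± 0.28, SE; adjusted p = 0.0680 in edgeR), and its groups did not overlap. CSTF2, the subunit that binds the downstream element, had 180 and 123 against 71.5 and 116 (adjusted p = 0.189), and NUDT21 127 and 134 against 130 and 119 (adjusted p = 0.901). As genes with tandem sites themselves, 13 of the 24 entered, of which 12 had enough pairs and 0 were called. PCF11, which links cleavage to termination, overlapped at 52.8% and 31.9% against 25.3% and 50.0%, and PAPOLA, the poly(A) polymerase, lay at 97.6% and 97.3% against 97.1% and 93.9%.

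Since each read pair holds both ends of a molecule, site choice could be read by the start used. For 781 genes with tandem sites, the 2 most used start clusters upstream of the last exon, at least 100 bp apart, had at least 20 pairs each, and the proximal share was compared between them within libraries, which the rule did not use. The share depended on the start in 52 genes (6.66%), against 8.04% of all 1132 genes tested, by edgeR's quasi-likelihood test at an adjusted p under 0.05. It was higher from the downstream start in 34 (4.35%; 4.68% of all) and lower in 18 (2.30%; 3.36% of all). Over the 781 genes the median log2 odds ratio of the downstream against the upstream start was 0.19, against 0.17 over all genes, and 120 genes had an unadjusted p under 0.05. DESeq2 called 18 genes, 8 of them higher, and starts at least 500 bp apart gave 17 higher calls in edgeR.

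Among the 52 genes called, the ranges of the 2 starts over the 4 libraries did not overlap in 36. The call used these same shares, so this separation is in part built in, and no such count is given for all genes tested. The difference in pooled share had a median size of 9.67 points, ran from 0.521 to 60.1 points and was 20 points or more in 14 genes, where the median over all 781 genes was 3.01 points. Only the upstream start was within 100 bp of an annotated start in 34 of the 52, only the downstream in 3 and both in 15. Of all 781 genes tested, both starts were annotated in 310.

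MCFD2 had the largest difference. Of the molecules from its upstream start, at chr2:46941734, 4.88%, 18.3%, 12.5% and 5.00% ended at the proximal site in DMSO replicates 1 and 2 and imatinib replicates 1 and 2, on 60 to 120 pairs per library. Of those from the start 25945 bp downstream, it was 70.3%, 77.3%, 65.1% and 61.5%, on 291 to 1522 pairs. Every library showed the difference and the starts did not overlap (log2 odds ratio 4.39 ± 0.30, SE; adjusted p = 1.11e-43 in edgeR). Both starts were annotated. The distal site of MCFD2 also received 684 pairs that start between the 2 sites.

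RPL22 went the other way. From the upstream start, which was not annotated, 92.4%, 92.5%, 89.8% and 88.8% ended at the proximal site, and from the annotated start 9204 bp downstream, which held 32824 pairs against 1222, it was 65.7%, 67.5%, 68.3% and 67.8% (log2 odds ratio -2.23 ± 0.22, SE; adjusted p = 2.29e-21 in edgeR). Both imatinib libraries were below both DMSO libraries from the upstream start and above both from the downstream start. These differences were smaller than that between the starts and were not tested. BSG, the glycoprotein basigin, ended at the proximal site in 38.5% to 44.6% of molecules from its annotated start and in 4.35% to 18.8% of those from an unannotated start 8729 bp downstream (adjusted p = 2.67e-05 in edgeR), which held 109 pairs. In RPL13A, a large-subunit protein, it was 47.1% to 61.3% against 22.5% to 47.4% (adjusted p = 0.000438 in edgeR), and these ranges overlap slightly.

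In the splicing factor gene SRSF2, 32.5% to 39.4% of molecules from the upstream and 0% to 11.1% of those from the downstream start ended at the proximal site (adjusted p = 7.82e-05 in edgeR), the latter on 9 to 19 pairs per library, where 0 of 12 and 0 of 19 still allow 25% and 15.8%. SPATA33 had 39.1% to 85.7% from the upstream and 18.6% to 44.4% from a second annotated start 266 bp on (adjusted p = 7.82e-05 in edgeR). These ranges overlap, although the downstream start was lower in each of the 4 libraries. ANP32A, a nuclear phosphoprotein, had 38.3% to 71.0% against 14.3% to 33.3% (adjusted p = 0.00244 in edgeR), on 51 pairs from the downstream start in all, and lost the call without DMSO replicate 2 (adjusted p = 0.137).

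CHCHD7, a mitochondrial protein gene with annotated starts 103 bp apart, had 3.85% to 16.0% from the upstream and 34.6% to 43.5% from the downstream start (adjusted p = 9.22e-05 in edgeR). The starts of CHCHD7 did not overlap, but the call was lost in DESeq2 (adjusted p = 0.115) and without DMSO replicate 2 (0.0776). PGRMC2, a haem-binding membrane protein, had 16.7% to 51.1% against 15.0% to 22.0% (adjusted p = 0.00111 in edgeR) and lost the call in DESeq2 (0.182) and without DMSO replicate 2 (0.0776) or imatinib replicate 1 (0.0530). YRDC, which takes part in tRNA modification, had 8.40% to 16.9% against 22.2% to 100%, the last on a single pair (adjusted p = 0.00679 in edgeR). Its call was lost in DESeq2 (adjusted p = 0.146) and without DMSO replicate 1 (0.0743) or 2 (0.180), and that of SRSF2 in DESeq2 (0.0576).

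**Figure D5:**
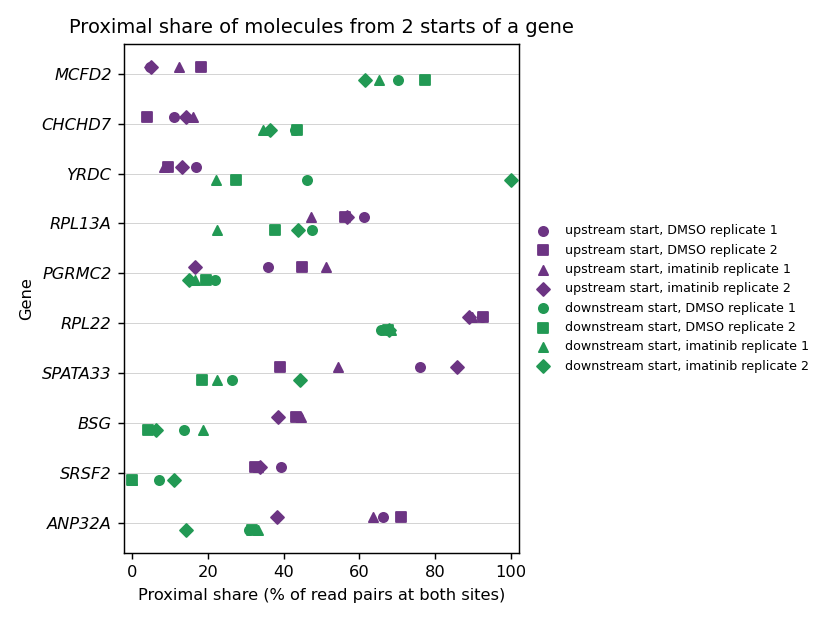
Proximal share (x axis, percent) of the molecules from the upstream and the downstream start of 10 genes called for dependence on the start (y axis, ordered by the difference in pooled share), 1 point per library. The starts of MCFD2 lie apart in every library, at 4.88% to 18.3% against 61.5% to 77.3%, and the point of YRDC at 100% rests on 1 pair.

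Some molecules start past the proximal site and can end only at the distal one. These made up 5.15% and 5.44% of the pairs at distal sites in the DMSO libraries and 6.73% and 5.72% in the imatinib libraries, and they were left out of the shares above. They weighed unevenly: in 304 of the 2766 genes they outnumbered the distal pairs from upstream starts, and in 257 (9.29%) the distal site had under 20 pairs without them. TFRC had 763 such pairs, TAL1, an erythroid transcription factor, 525, SLC25A37, the mitochondrial iron importer mitoferrin, 427 and NUDT21 356. With all pairs counted, the mean of the library medians was 51.6% with DMSO and 46.6% with imatinib. The imatinib minus DMSO difference was -5.04 points on this count, and 0 genes were called by edgeR.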

How the data were processed

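Read pairs were measured by TIF-Seq2 in 4 libraries. Each deposited table lists raw counts, 1 for every combination of 5′ and 3′ end position; the authors trimmed reads with cutadapt 1.16, aligned both ends separately to hg38 with STAR 2.5.3a, kept unique alignments and removed PCR duplicates by UMI. The counts are not normalized and not filtered for internal priming. Long-read models and 3′T-fill libraries were not used here. UMI-deduplicated pairs are taken as single molecules. The depths of 2263121 to 5135829 pairs limit what low sites can show.

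Sites were built from the pooled counts with Python 3.11.15, and matched to Gencode v44, whereas the study used earlier releases. Tests were run in R 4.3.3 with edgeR 4.0.16 (quasi-likelihood, Benjamini-Hochberg over all genes or sites fitted; library effects for shares; TMM and filterByExpr for levels) and DESeq2 1.42.0 as an alternative, and were tested on simulated data. Genes were named by fixed rules: the 6 with the most pairs, the 5 with the smallest p each way for imatinib with at least 100 pairs, the 10 with the largest difference between starts among those called with at least 50 pairs per start, members of 4 gene lists, and genes at the limits of the rule; some of these are not reported here. The genes, the lists and the rules were chosen with earlier results of these data known. The study names the replicates as biological, and p-values measure the spread between these samples. Alternatives were other limits on pairs, merging and distance, other site and start choices, other normalizations, DESeq2, replicate blocks and leaving out each library.

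Replicate numbers are shared by the groups, but same-numbered libraries did not deviate together (correlation of -0.39 over 2441 genes), so they were not taken as pairs.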

Additional observations from a re-analysis of the deposited data

How the results depend on the processing

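With 50 pairs per site the rule left 1695 genes, with a DMSO mean of the median shares of 58.6%; the most upstream against the most downstream site gave 47.5% with DMSO and 42.3% with imatinib, and all pairs whatever their start, an alternative chosen after seeing the data, 51.6% and 46.6%. COX19 turned to a log2 odds ratio of -1.79 under the most upstream and most downstream sites. For the change with imatinib, DESeq2 called 1 gene and the replicate block 1, against 0, and no other alternative that was planned called any; the replicate block gave 158 called sites, against 346. The correlation of same-numbered libraries was -0.39, and with crossed numbers, added after seeing the data, 36 genes, 1093 sites and 3 machinery genes were called. The numbers are shared labels only, and the cause was not tested.

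For the start used, DESeq2 gave 18 calls and a median log2 odds ratio of 0.0041, and starts 500 bp apart a median of 0.022. Leaving out 1 library gave 27 to 45 start calls (27 without DMSO replicate 1 or 2, 32 without imatinib replicate 1), 98 to 897 called sites and 0 to 3 machinery genes (3 without imatinib replicate 2), and no filter on low counts called 1 machinery gene; the cause was not tested. Beside COX19, the genes with the smallest p for imatinib and those with the largest differences between starts kept their direction in each alternative that gave a value for them, as did the median changes; TXNL4A had no value for the most upstream and most downstream sites and ANP32A none for 50 pairs per start, and the genes of the lists were not recomputed. The counts of machinery genes under the alternatives stand without the share of all genes called in the same fit, and cannot be set against it. Sites of under 20 pairs, and starts of few pairs, cannot be described at these depths.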
